A study of Homo sapiens with 6 samples.

Results

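Of the 58735 genes in the table, 6 are described here: 4 of the Schlafen family (SLFN5, SLFN11, SLFN12 and SLFN13) and the pair SAMD9 and SAMD9L. All 6 were found by symbol, with 1 row each. They were selected on their difference between the groups as much as on their function, since earlier results of this comparison were known, so their own differences are given as a description with no test. RNA was sequenced from 6 libraries of T24 cells, an established human bladder cancer line grown in RPMI 1640 medium with serum. The 3 control libraries, labelled sgNC, carry the genotype of an empty vector, and the other 3, labelled sgOTUD1, that of an OTUD1 knockout. OTUD1 encodes a deubiquitinase. The guide, and whether the edited cells were a clone or a pool, are not stated in the labels.

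Schlafen and SAMD9 proteins are restriction factors, cellular proteins that limit the growth of viruses, and interferon induces most of their genes. Several of them act on translation. SLFN11 and SLFN13 cut transfer RNAs, SAMD9 cuts the transfer RNA of phenylalanine, and SLFN12 becomes an active RNase when bound to the phosphodiesterase PDE3A. SLFN5 is a nuclear protein that restricts transcription of herpes simplex virus, and SAMD9 and SAMD9L restrict poxviruses. In cancer cells SLFN11 is best known for blocking stressed replication forks and for making cells sensitive to DNA-damaging drugs.

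The Schlafen genes lie together on chromosome 17 of hg38. SLFN5 (ENSG00000166750) spans 35243036 to 35273655 on the plus strand. SLFN11 (ENSG00000172716, 35350305 to 35373701), SLFN12 (ENSG00000172123, 35411060 to 35433283) and SLFN13 (ENSG00000154760, 35435096 to 35448837) follow on the minus strand, with 1812 bases between SLFN12 and SLFN13. SAMD9 (ENSG00000205413, 93099513 to 93118023) and SAMD9L (ENSG00000177409, 93130055 to 93148369) are neighbours on the minus strand of chromosome 7, with 12031 bases between them. In GENCODE 29 the longest coding sequences hold 891 codons for SLFN5, 901 for SLFN11, 897 for SLFN13 and 578 for SLFN12, the short member of the family. Those of SAMD9 and SAMD9L hold 1589 and 1584 codons and are 72.1% identical over aligned bases.

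The coding sequences of SLFN11 and SLFN13 are 87.2% identical over aligned bases, against 67.3% for SLFN5 and SLFN11 and 61.9% for SLFN11 and SLFN12. From base 1438 to base 1953 of both reading frames, counted from the A of the start codon, the pair share 516 bases without a difference. Both ends of that run are shown because these genes differed in opposite directions between the groups, and reads inside the run cannot be assigned to either gene. Capitals mark the first or last 40 shared bases and lower case the 20 bases outside the run, from GENCODE 29 transcripts.
SLFN11 start of the run: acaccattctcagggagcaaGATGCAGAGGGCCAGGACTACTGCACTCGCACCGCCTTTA
SLFN13 start of the run: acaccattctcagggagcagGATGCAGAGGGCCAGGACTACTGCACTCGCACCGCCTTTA
SLFN11 end of the run: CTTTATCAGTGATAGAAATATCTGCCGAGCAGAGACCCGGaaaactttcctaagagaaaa
SLFN13 end of the run: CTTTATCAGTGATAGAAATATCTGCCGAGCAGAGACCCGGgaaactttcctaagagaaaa
The run makes up 8.63% of the exon length of SLFN11 and 5.53% of that of SLFN13. Of all 75-base stretches in their transcripts, 7.27% of SLFN11 and 4.96% of SLFN13 also occur in another gene, as do 0.133% of SLFN12, where SLFN12L is the other gene. SLFN5, SAMD9 and SAMD9L share none. No source used here says how reads that match several genes were treated, so the levels of SLFN11 and SLFN13 carry that uncertainty.

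Promoter windows from RefSeq (GRCh38.p14, 250 bases before to 50 after the gene start) were at hand for 4 of the 6 genes, SLFN11, SLFN12, SAMD9 and SAMD9L. They were searched on both strands for GAAANNGAA, the core of the element through which interferon acts, and for TTCNNNGAA, a STAT binding site. The windows of the SAMD9 pair, which were lower together, and of SLFN11, the gene that was higher, are printed on the minus strand of their chromosomes with matches in capitals.
SAMD9, chr7:93117930-93118229: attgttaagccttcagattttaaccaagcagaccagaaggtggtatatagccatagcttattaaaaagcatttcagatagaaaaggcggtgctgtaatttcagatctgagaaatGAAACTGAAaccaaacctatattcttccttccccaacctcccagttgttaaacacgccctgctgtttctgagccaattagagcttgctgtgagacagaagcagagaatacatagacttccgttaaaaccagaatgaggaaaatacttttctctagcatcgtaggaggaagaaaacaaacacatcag
SAMD9L, chr7:93148336-93148635: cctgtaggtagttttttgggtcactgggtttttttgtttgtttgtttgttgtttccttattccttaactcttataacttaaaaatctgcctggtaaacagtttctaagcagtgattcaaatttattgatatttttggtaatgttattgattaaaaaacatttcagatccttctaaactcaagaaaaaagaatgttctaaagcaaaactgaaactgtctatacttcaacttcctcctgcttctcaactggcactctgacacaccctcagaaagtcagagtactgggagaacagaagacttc
SLFN11, chr17:35373572-35373871: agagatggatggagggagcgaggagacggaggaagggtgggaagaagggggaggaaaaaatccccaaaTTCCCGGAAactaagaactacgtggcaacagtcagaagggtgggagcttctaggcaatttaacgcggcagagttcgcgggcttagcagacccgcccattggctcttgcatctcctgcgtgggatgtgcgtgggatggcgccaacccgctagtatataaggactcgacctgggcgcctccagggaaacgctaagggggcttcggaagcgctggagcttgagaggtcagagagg
The window of SAMD9 held 1 match to the interferon element, GAAACTGAA, from -136 to -128 relative to the RefSeq start. That of SLFN11 held 1 match to the STAT site, TTCCCGGAA, from -182 to -174. The SAMD9L and SLFN12 windows held neither. Of all 35116 windows in the table, 8.11% held the first motif and 7.66% the second. A match describes the letters and is no evidence of binding. The windows also differ in base composition, with 34.3% G and C in SAMD9L, 39.7% in SAMD9, 53.3% in SLFN12 and 58.0% in SLFN11.

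Expression is given as deposited FPKM, fragments per kilobase of exon scaled by a factor for each library, which compares genes per length. The targeted gene OTUD1 was at 13.9, 15.6 and 14.6 FPKM in sgNC and at 16.2, 17.9 and 17.1 FPKM in the libraries labelled sgOTUD1, so its transcript was not lower there. On the deposited scale it was called higher (log2 fold change 0.20, SE 0.054, limma adjusted p = 0.0167), as were 31.2% of all genes tested. A small insertion or deletion need not lower a transcript, and this level does not check such a knockout. Each library held from 16697370 to 17191933 reads on genes. Reads on mitochondrial genes were 3.8% to 4.11% of them in sgNC and 2.08% to 2.23% in the libraries labelled sgOTUD1. In 14658 genes with a mean of at least 0.5 FPKM, all 6 described genes among them, the groups were compared with limma on log2(FPKM + 1), and log2 fold changes and standard errors (SE) come from that fit. Fold differences are ratios of mean FPKM, so the log2 fold changes of the 6 genes, which include the added 1, are smaller. Whether the replicates were separate cultures is not stated, so any spread between them may be technical. In bulk RNA, fewer cells expressing a gene and less RNA per cell cannot be told apart.

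SLFN5 showed the widest difference of the 6. It was at 15.3, 15.7 and 14.9 FPKM in sgNC and at 2.85, 2.72 and 2.48 FPKM in the libraries labelled sgOTUD1, from a mean of 2903 and 472 reads. Every sgNC library was far above every other library. The means were 15.3 ± 0.43 and 2.68 ± 0.18 FPKM (SD, n = 3 each), 5.69-fold lower, with a log2 fold change of -2.15 (SE 0.052). It ranked 19th from the lowest of the 14658 genes tested.

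SLFN11 went the other way. Its level was 10.9, 11.1 and 11.2 FPKM in sgNC and 15.5, 14.7 and 13.9 FPKM in the libraries labelled sgOTUD1, from a mean of 1175 and 1443 reads. The sgNC libraries lay close together, and the lowest of the other libraries stood above them. The means of 11.1 ± 0.16 and 14.7 ± 0.82 FPKM differed by 1.33-fold, with a fitted log2 fold change of 0.38 (SE 0.047).

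SLFN13, the close relative of SLFN11, was lower in the libraries labelled sgOTUD1. It was at 5.97, 5.87 and 6.04 FPKM in sgNC and at 3.66, 3.77 and 3.74 FPKM in the others. These were the tightest replicates of the 6 genes, with means of 5.96 ± 0.089 and 3.72 ± 0.059 FPKM. The mean was 1.6-fold lower, and the fitted log2 fold change was -0.56 (SE 0.042). SLFN12, the PDE3A-activated RNase, was the lowest of the 6 in 5 of the 6 libraries, at 2.95, 3.06 and 2.73 FPKM in sgNC and 2.13, 2.46 and 2.58 FPKM in the libraries labelled sgOTUD1, from a mean of 184 and 139 reads. Its groups came close to each other without overlapping, and in sgOTUD1 replicate 3 it was above SLFN5. The mean of SLFN12 was 1.22-fold lower, with a fitted log2 fold change of -0.21 (SE 0.071).

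SAMD9 was the most abundant of the 6 genes. It was at 41.7, 44 and 40.9 FPKM in sgNC and at 18.5, 15.9 and 15.9 FPKM in the libraries labelled sgOTUD1, from a mean of 5131 and 1887 reads. Its groups were separated by more than the highest level of any of the other 5 genes. The means were 42.2 ± 1.6 and 16.8 ± 1.5 FPKM, 2.52-fold lower, with a log2 fold change of -1.29 (SE 0.064). SAMD9L, its paralog, was at 6.95, 7.23 and 6.73 FPKM in sgNC and at 4.199, 4.06 and 4.02 FPKM in the others. The groups were again apart, and the means of 6.97 ± 0.25 and 4.09 ± 0.095 FPKM differed by 1.70-fold, with a fitted log2 fold change of -0.65 (SE 0.045).

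**Figure D1:**
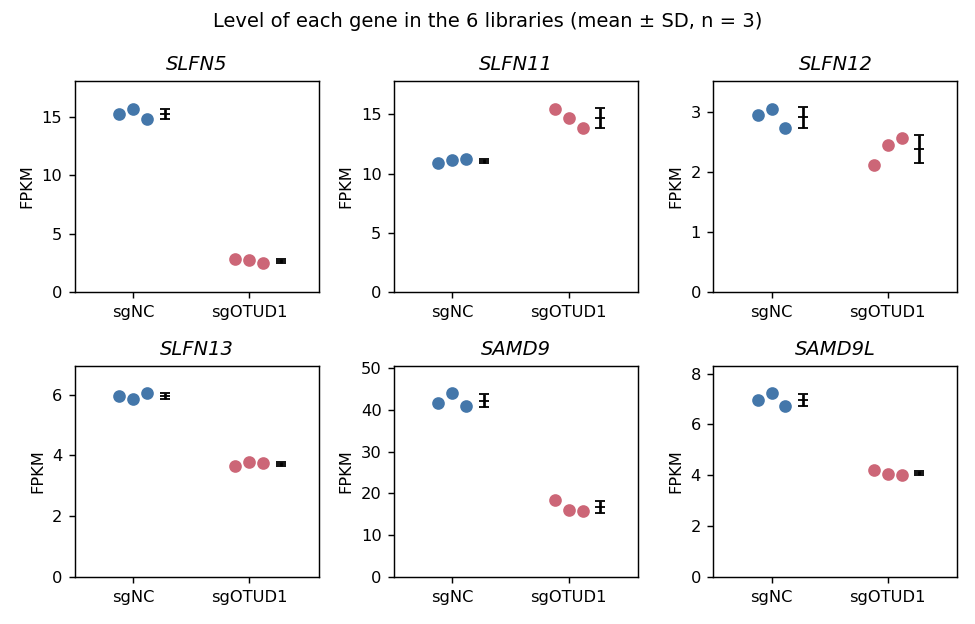
FPKM (y axis, from 0) of the 6 genes in the 3 sgNC and 3 sgOTUD1 libraries, 1 point per library, with the mean and SD in black. SLFN11 was higher in all 3 sgOTUD1 libraries, at 13.9 to 15.5 FPKM against 10.9 to 11.2, and the other 5 genes were lower in all 3.

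For 6 of the 6 genes no value of 1 group reached the range of the other, and the same was true of 64.0% of all genes tested. At an adjusted p under 0.05, 1 of the 6 genes was higher and 5 were lower, against 31.2% and 24.7% of all genes tested. The call of SLFN12 held in only 9 of the 15 settings that gave it a value, the main fit included. As the genes were chosen from this contrast, nothing is read from these counts.

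In sgNC the order of levels was SAMD9, SLFN5, SLFN11, SAMD9L, SLFN13 and SLFN12, and no neighbours in that order overlapped in their libraries. In the libraries labelled sgOTUD1 it was SAMD9, SLFN11, SAMD9L, SLFN13, SLFN5 and SLFN12. There SLFN12 at 2.13 to 2.58 FPKM and SLFN5 at 2.48 to 2.85 FPKM overlapped, and the other neighbours did not. SLFN5 thus went from the second level to the range of the lowest. SAMD9 in sgNC was above 93.9% of the genes tested, SLFN5 above 80.4% and SLFN12 above 38.2%.

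The composition of the Schlafen group differed more than its sum. The 4 genes added up to 35.2 ± 0.47 FPKM in sgNC and 23.5 ± 0.75 FPKM with the sgOTUD1 label (SD, n = 3 each). SLFN5 made up 43.4% ± 0.66 of that sum in sgNC and 11.4% ± 0.43 in the others, whereas SLFN11 made up 31.4% ± 0.63 and 62.5% ± 1.6. The shares of SLFN13, 16.9% ± 0.47 and 15.9% ± 0.69, were close to each other. The ratio of SLFN5 to SLFN11 was 1.33 to 1.41 in sgNC and 0.179 to 0.185 in the libraries labelled sgOTUD1. Within the pair on chromosome 7, SAMD9 was at 6.06 ± 0.052 times the level of SAMD9L in sgNC and at 4.09 ± 0.26 times in the others.

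**Figure D2:**
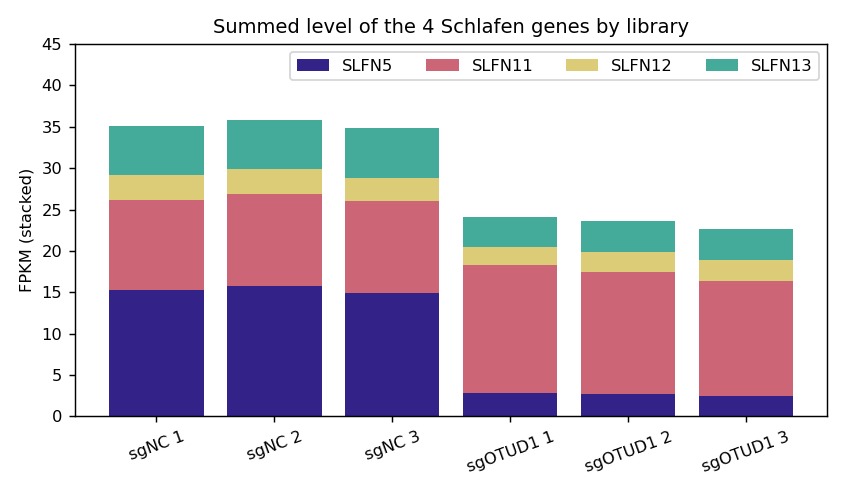
Stacked FPKM (y axis) of SLFN5, SLFN11, SLFN12 and SLFN13 in each of the 6 libraries. The sums are 34.8 to 35.8 FPKM in sgNC and 22.7 to 24.1 FPKM in sgOTUD1, and SLFN11 takes 61.1% to 64.2% of the latter.

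Scaling between libraries bears on all of these values. The deposited FPKM carry a scaling of the authors that did not follow the reads on genes. It implied depths of 17490600 to 17980800 in sgNC and 16238000 to 16654300 in the libraries labelled sgOTUD1. Reads on genes were 16697370 to 17004704 and 16965127 to 17191933. Under that scaling 55.9% of called genes were higher in the libraries labelled sgOTUD1. That share was 39.6% with median-ratio rescaling and 36.8% with TPM, in which every library has the same total per length. These rescalings moved the median log2 fold change of all genes by -0.10 and -0.13. Relative to the median of all genes, SLFN11 was at 0.35 as deposited, 0.32 with median-ratio rescaling and 0.35 with TPM, and SLFN5 at -2.18, -2.19 and -2.44. All 6 genes kept their direction under the 15 alternatives fitted that gave them a value. In absolute terms SLFN11 went from 0.38 to 0.25 with either rescaling, and SLFN12 from -0.21 to -0.40 with TPM and to -0.42 with limma-voom on recovered reads. With an offset of 0.1 and no rescaling, SLFN12 was at -0.28 and SLFN5 at -2.47. The parts of scaling and offset in these moves were not separated.

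**Figure D3:**
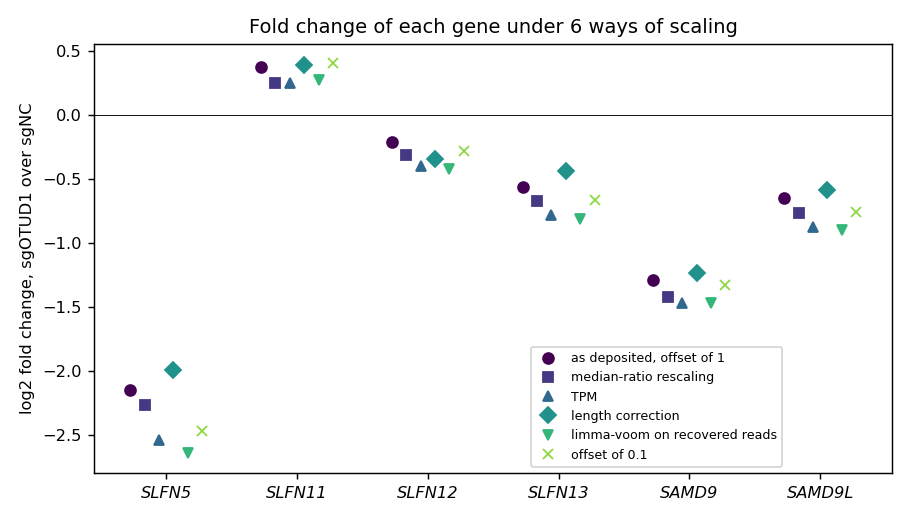
Log2 fold change (y axis) of the 6 genes under 6 settings that differ in scaling, offset or length correction, 1 symbol each. SLFN11 stays above 0 at 0.25 to 0.40 and the other genes stay below 0, with SLFN5 between -2.64 and -1.99.

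Fold changes in this comparison went with gene length. Among genes tested, split into 10 equal groups by length, the group with the longest exons, from 9705 bases, had a median log2 fold change of -0.21 and held 54.1% genes called lower, whereas that of 1579 to 2483 bases, had a median of 0.21 and 14.6% lower. SLFN5, with 10709 bases of exon, belongs to that longest group and differed from its median by -1.93. SAMD9 and SAMD9L, of 6855 and 7135 bases, differed from the median of their length group by -1.24 and -0.60, and SLFN13, of 9329 bases, by -0.48. SLFN12, of 3560 bases, differed by -0.32, and SLFN11, of 5982 bases, by 0.37. After a length correction the log2 fold changes were -1.99 for SLFN5, -1.24 for SAMD9, -0.59 for SAMD9L, -0.44 for SLFN13, -0.34 for SLFN12 and 0.39 for SLFN11. The part of length in these differences was not tested further.

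**Figure D4:**
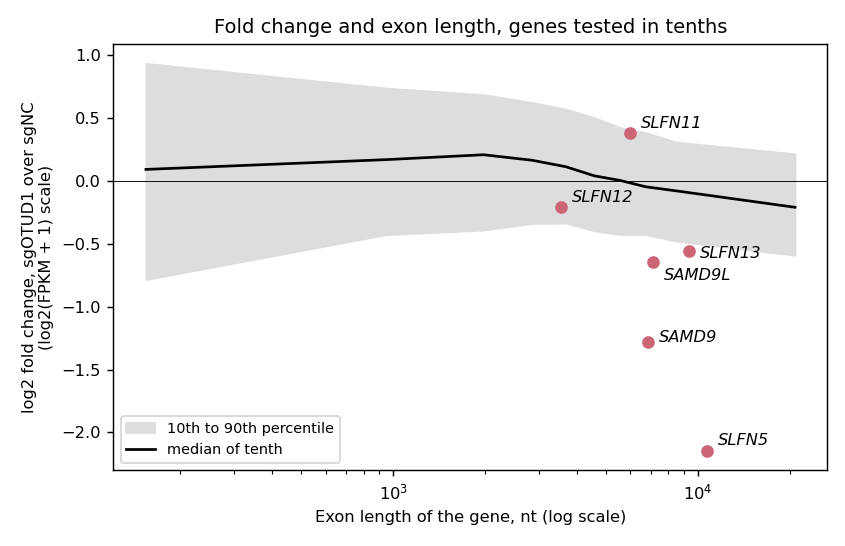
Log2 fold change (y axis) against exon length (x axis, log scale), with the median of each of 10 length groups of the 14658 genes tested as a line and their 10th to 90th percentile in grey. SLFN5 at -2.15 and SAMD9 at -1.29 lie well below the grey band, and SLFN12 at -0.21 and SLFN11 at 0.38 lie inside it.

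Genes around these loci did not share 1 direction. Within 250 kb of the Schlafen genes, 10 other genes were tested, of which 2 were higher and 3 lower, against 31.2% and 24.7% of all genes tested. Counts this small are a description. AC022916.1, an antisense transcript that starts 72 bases from SLFN5 on the opposite strand, fell from 0.882 ± 0.056 to 0.334 ± 0.21 FPKM (log2 fold change -0.51, SE 0.14, limma adjusted p = 0.0164), from a mean of 44 and 15.3 reads. Leaving out sgNC replicate 1 ended its call (limma adjusted p = 0.0525). RAD51D, a recombination gene, fell from 1.98 to 1.10 FPKM (limma adjusted p = 0.002). NLE1, a ribosome assembly gene, rose from 5.16 to 6.37 FPKM, and that call ended with both rescalings (limma adjusted p = 0.0915 and 0.121) and with limma-voom (0.0509). The pseudogene AC004134.1 rose from 0.920 to 2.53 FPKM, a call that ended without sgNC replicate 3 (limma adjusted p = 0.0501). AP2B1, the most abundant neighbour, was at 88.5 ± 1.4 and 83.6 ± 3.1 FPKM and was not called (limma adjusted p = 0.096). Beside the SAMD9 pair 2 other genes were tested, too few to set against those shares, and neither was called, with VPS50 at 2.75 and 3.00 FPKM.

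The other Schlafen genes were below the level tested. SLFN12L was at 0 to 0.0475 FPKM, from 14 reads over all libraries, and SLFN14 had 2 reads in 1 library. SLFNL1 had 40, 16 and 17 reads in the sgNC libraries and 5, 4 and 2 in the others. PDE3A, the partner that activates SLFN12, had 1 read in 1 library, and PDE3B had 3 reads in 1 library. A count of 0 allows up to 0.022 FPKM for PDE3A and 0.0158 FPKM for PDE3B.

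Antiviral factors outside the 6 genes differed in both directions. Of 46 genes chosen by function, 34 were tested, of which 18 were higher (52.9%) and 8 lower (23.5%), against 31.2% and 24.7% of all genes tested, and their median log2 fold change was 0.17 against 0.03 for all genes tested. With TPM 19388 genes passed the filter, of which 3136 were higher and 5394 lower, and 11 of the list were higher and 11 lower. The membrane proteins IFITM1 (29.2 to 53.6 FPKM), IFITM2 (59.3 to 108 FPKM) and IFITM3 (232 to 431 FPKM), which block viral entry, rose with limma adjusted p of 3.9e-06, 6.8e-05 and 1.79e-05, and reads of these similar genes may be shared. BST2, the tether that holds budding virus at the membrane, rose from 208 to 310 FPKM (limma adjusted p = 0.000203). KHNYN, the RNase that works with the zinc finger antiviral protein, fell from 8.68 ± 0.31 to 4.05 ± 0.35 FPKM (log2 fold change -0.94, SE 0.061, limma adjusted p = 2.97e-05). OAS3, an oligoadenylate synthetase that senses double-stranded RNA, fell from 16.7 to 11.5 FPKM (limma adjusted p = 5.49e-05), and IFIT3, from 21.1 to 15.2 FPKM (limma adjusted p = 0.000107).

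Genes that carry the interferon signal differed in both directions at the receptors and among the transcription factors. No read was found for IFNB1, IFNG, IFNL1, IFNL2 or IFNL3, and the keratinocyte interferon IFNK was at a mean of 0.512 and 0.125 FPKM, below the level tested. Among receptors, IFNAR1 fell from 6.72 to 4.87 FPKM (log2 fold change -0.39, SE 0.045, limma adjusted p = 0.00034) and IFNGR2 rose from 20.03 to 27.6 FPKM (limma adjusted p = 0.000508). The kinase JAK1 fell from 21.2 to 17.6 FPKM (limma adjusted p = 0.0079). Among factors that act at the interferon element, STAT2 fell from 20.8 ± 0.82 to 15.0 ± 0.48 FPKM (limma adjusted p = 0.000166) and IRF9 rose from 1.26 ± 0.25 to 3.01 ± 0.19 FPKM (limma adjusted p = 0.000317). IRF1, a factor of the same element, rose from 11.4 to 21.2 FPKM (limma adjusted p = 1.7e-05). The feedback inhibitors SOCS1 (2.88 to 8.03 FPKM) and SOCS3 (22.4 to 41.0 FPKM) rose too, with limma adjusted p of 2.1e-05 and 8.22e-06. In all, 23 of 33 such genes were tested, of which 8 were higher and 6 lower, and the median was -0.05. These shares, 34.8% and 26.1%, are near the 31.2% and 24.7% of all genes tested. With median-ratio rescaling 7 were higher and 10 lower, against 3265 and 4985 of 14670 genes tested, and without sgNC replicate 1 the lower count was 3.

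**Figure D5:**
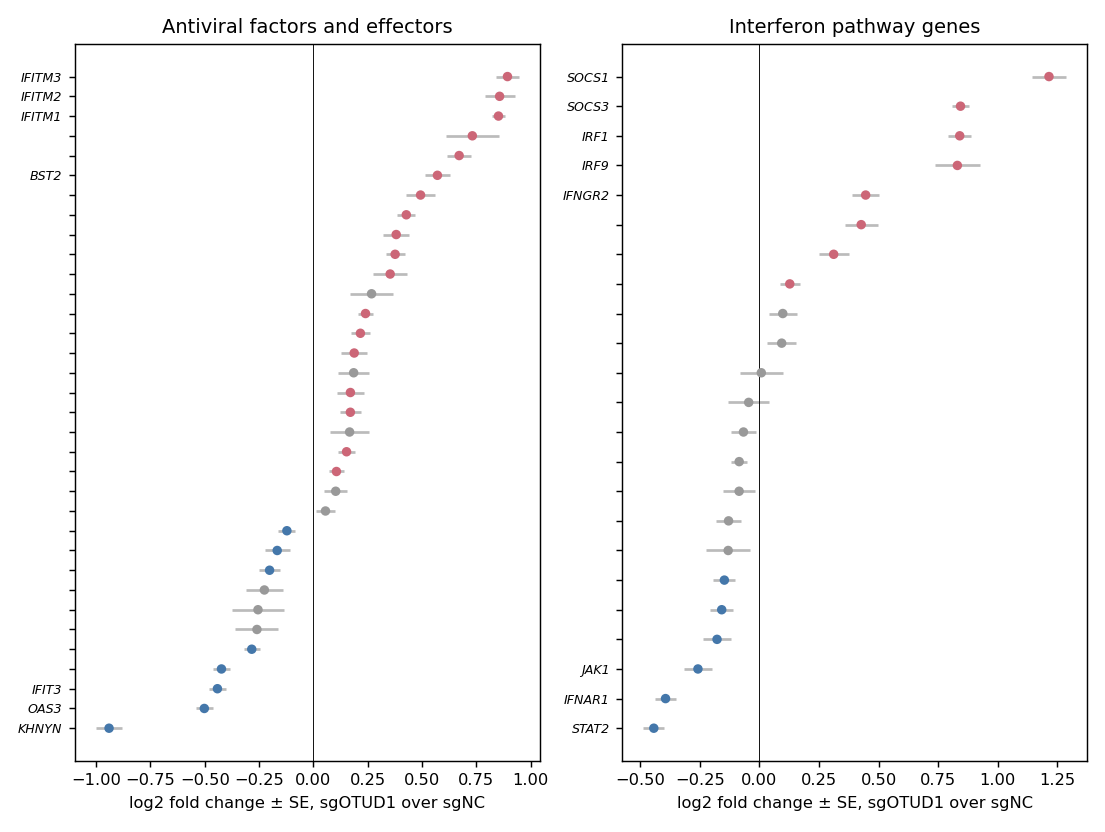
Log2 fold change ± SE (x axis) of the tested antiviral factors (left) and interferon pathway genes (right), 1 point per gene and labels for those named in the text, with genes called higher in red, lower in blue and not called in grey. On the left IFITM3 at 0.89 and KHNYN at -0.94 mark the ends, and on the right SOCS1 at 1.22 and STAT2 at -0.44.

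Genes that sense or rescue stalled ribosomes, the lesion that cut transfer RNAs leave, differed in both directions. All 19 were tested, with 6 higher (31.6%) and 7 lower (36.8%) and a median of 0.01, against 31.2% and 24.7% of all genes tested. GCN1 (17.7 to 13.0 FPKM) and the kinase it activates, EIF2AK4 (8.73 to 6.84 FPKM), fell, with limma adjusted p of 0.000255 and 0.000961, as did the ribosome rescue factor GTPBP2 (28.0 to 22.8 FPKM, 0.000453) and the translation repressor GIGYF2 (4.09 to 2.88 FPKM, 0.000592). ANKZF1, which frees stalled peptides from their transfer RNA, rose from 8.91 to 13.7 FPKM (limma adjusted p = 3.13e-05), and GTPBP1 from 8.53 to 11.2 FPKM (0.00122). EDF1, which binds collided ribosomes, rose from 75.2 to 101 FPKM (limma adjusted p = 0.00524), a call that ended with length correction (0.108). With TPM, median-ratio rescaling or limma-voom 3 were higher and 9 lower, and under each of these more of all genes were lower than higher.

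Replication fork genes, among which SLFN11 acts, also differed in both directions, with 8 higher (42.1%) and 7 lower (36.8%) of 19 tested, against 31.2% and 24.7% of all genes tested, around a median of 0.07. With TPM 5 were higher and 8 lower, and with median-ratio rescaling 6 and 8, settings in which more of all genes were lower than higher. RPA2 (25.4 to 34.3 FPKM) and RPA3 (19.0 to 24.8 FPKM), subunits of the single-strand binding complex to which SLFN11 is recruited, rose with limma adjusted p of 0.000157 and 0.00016, and RPA1 was at 24.3 and 25.4 FPKM and was not called (0.259). CDT1, the licensing factor, rose from 46.4 to 69.3 FPKM (limma adjusted p = 0.000334). The ATR activator ETAA1 (4.24 to 2.02 FPKM), the fork protein TIMELESS (22.9 to 16.9 FPKM) and ATRIP (2.52 to 1.47 FPKM) fell, with limma adjusted p of 4.37e-05, 9e-05 and 0.000607. The topoisomerase and PARP genes, targets of drugs to which SLFN11 sensitizes cells, differed in both directions. TOP2A fell from 123 to 99.2 FPKM (limma adjusted p = 0.000672) and TOP2B from 19.7 to 15.7 FPKM (0.00114). PARP2 rose from 7.67 to 10.2 FPKM (0.000385) and TOP1 from 33.1 to 36.5 FPKM (0.0194). The call of TOP1 ended under 5 of 15 alternatives. PARP1 was at 51.1 and 49.1 FPKM and was not called (0.203).

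The genes whose levels over the 6 libraries were most like SLFN5, by Pearson's r of log2(FPKM + 1) among 6594 other protein-coding genes of mean FPKM of at least 5, were TRIO, PLEKHA6, MT-ND6, CDC42BPB and FAM208A, all with r of at least 0.999. For SAMD9 they included KIF14, THSD4, CKAP2L and BRCA1, and for SAMD9L TYSND1, MT-ND5, NCOA2, ADCY3 and ITGA2. Such likeness was common, since 14.3% of those genes had an r above 0.95 with SLFN5. These values over 6 libraries share the difference between the groups and are a description. By the same measure SLFN5 was at 0.997 with SAMD9, 0.998 with SAMD9L, 0.996 with SLFN13, 0.83 with SLFN12 and -0.96 with SLFN11.

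The libraries had epithelial features, with KRT5 at 1195 and 1483 FPKM and EPCAM at 68.1 and 91.6 FPKM in the groups, while the uroplakins UPK1A, UPK1B and UPK3A were at or near 0 and UPK2 was low, at 1.45 and 1.89 FPKM. Of 18 epithelial and urothelial markers 14 were tested, with 9 higher (64.3%) and 2 lower (14.3%), against 31.2% and 24.7% of all genes tested. The 2 that fell were CDH1, from 69.1 to 48.2 FPKM (limma adjusted p = 2.41e-05), and TP63, from 41.2 to 36.0 FPKM (0.0162). The call of TP63 ended under 4 of 15 alternatives, length correction among them (limma adjusted p = 0.0699). Leukocytes, which express several of the 6 genes, left little trace. PTPRC, CD3D, CD4, MS4A1 and NCAM1 had no read, and the 13 leukocyte markers added up to 1.76 to 2.19 FPKM in sgNC and 0.814 to 0.891 FPKM in the libraries labelled sgOTUD1. The highest on average were CSF1R, which fell from 1.14 to 0.429 FPKM (limma adjusted p = 0.00238), and CD8A, at 0.518 and 0.340 FPKM and below the level tested. The 12 fibroblast and endothelial markers added up to 12.1 to 12.8 and 8.002 to 8.12 FPKM. All 13 mitochondrially encoded mRNAs were lower, against 24.7% of all genes tested, with a median log2 fold change of -1.26. Such mRNAs can vary with RNA quality, which was not measured here. The part of other cell types or of RNA quality in the values of the 6 genes was not tested.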

How the data were processed

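The authors deposited 1 table of FPKM values for 58735 genes, 1 column per library, per the file headers. Per the submitters' processing notes the genome build was hg38, and the tools listed are DESeq2 1.20.0 and featureCounts 1.5.0-p3. No source used here gives the aligner, strand setting or annotation. Every identifier was in GENCODE 29, whose union exon lengths turned 100% of values into whole reads (tolerance 0.001). Since no file holds counts, the main test was limma 3.58.1 in R 4.3.3 (trend and robust options, two-sided, group as the only term) on log2(FPKM + 1) across the 14658 genes whose mean reached 0.5 FPKM, with Benjamini-Hochberg adjustment. That scale understates the change of low genes. The test was checked on simulated reads in which far fewer genes changed than were called here. That check does not vouch for calls of small fold just under the threshold. Replicates differed beyond sampling noise (mean chi-square of a gene 2.06 to 3.75 for pairs of 1 group, 61.0 to 70.8 for pairs across groups). Groups and replicate numbers came from the sample titles.

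The genes, lists and tests were chosen with earlier results of these data known. Named genes were the 6, their relatives and partners, called neighbours, steps of the pathway, and up to 3 called genes per direction and list with the smallest adjusted p. Shared sequence was counted in GENCODE 29 transcripts, and coding sequences were aligned globally. Alternatives were a replicate block, leaving out each library, no filter, a filter at 5 FPKM, TPM, median-ratio rescaling, an offset of 0.1, no trend or robust options, a spline correction for exon length, limma-voom on recovered reads and an adjusted p under 0.01. Protein sequences were not analysed here. A few genes within the rule are not reported here. Tables were read with SciPy 1.17.1, NumPy 2.4.6 and pandas 2.3.3 in Python 3.11.15.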

Additional observations from a re-analysis of the deposited data

How the results depend on the processing

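All 6 genes kept their sign under the alternatives that gave them a value. Their lowest and highest log2 fold changes were -2.64 and -1.99 for SLFN5, 0.25 and 0.42 for SLFN11, -0.42 and -0.15 for SLFN12, -0.81 and -0.44 for SLFN13, -1.47 and -1.24 for SAMD9 and -0.90 and -0.59 for SAMD9L. SLFN12 and SLFN13 fell out at a mean FPKM of at least 5. The call of SLFN12 also ended with the replicate block and with no filter. It ended too without sgNC replicate 1 or 2 and without sgOTUD1 replicate 1 or 2. The labels do not say whether the replicate numbers pair the libraries. The deviations of same-numbered libraries correlated at 0.00155, -0.0513 and -7e-04, so no shared replicate effect was seen. With the replicate block 4431 genes were higher and 3360 lower, against 4577 and 3615 without it. Leaving out 1 library gave 4074 to 4308 higher and 3059 to 3314 lower, and 3 to 5 interferon pathway genes lower against 6, with 3 without sgNC replicate 1. A mean FPKM of at least 5 tested only 7047 genes. Of these, 1757 were lower in all, with 1 among transfer RNA nucleases and 4 among replication fork genes. No filter left 3 interferon pathway genes lower, with 3418 lower of all 30422 genes tested. An adjusted p under 0.01 left 3 interferon pathway genes lower, 5 antiviral factors lower and 3 ribosome rescue genes higher. At that threshold 3426 of all genes tested were higher and 2500 lower. Median-ratio rescaling gave 3 ribosome rescue genes higher and 10 interferon pathway genes lower, with 3265 higher and 4985 lower of all 14670 genes tested. TPM gave 11 antiviral factors higher, 3 ribosome rescue genes higher, 5 replication fork genes higher and 5 transfer RNA nucleases lower. Of all 19388 genes tested with TPM, 3136 were higher and 5394 lower. Limma-voom gave 3 ribosome rescue genes higher and 5 transfer RNA nucleases lower, with 3463 higher and 5306 lower of all 14658 genes tested. Length correction also gave 5 transfer RNA nucleases lower, with 3858 higher and 4097 lower of all genes tested. The cause of these shifts was not tested. Depth limits SLFN12 most, at 126 to 196 reads per library, and SLFN12L, SLFN14, PDE3A and PDE3B cannot be compared.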

Other observations

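Nucleases that cut or trim transfer RNA, the substrate of SLFN11, SLFN13 and SAMD9, differed in both directions, with 8 higher (44.4%) and 3 lower (16.7%) of 18 tested, against 31.2% and 24.7% of all genes tested. Their median log2 fold change was 0.07, near the 0.03 of all genes tested. With TPM, under which 3136 of 19388 genes were higher and 5394 lower, 6 of these nucleases were higher and 5 lower. ANG, angiogenin, which cuts transfer RNAs in stressed cells, rose from 1.88 ± 0.23 to 5.44 ± 0.66 FPKM (log2 fold change 1.16, SE 0.092, limma adjusted p = 6.48e-05), and its inhibitor RNH1 was at 14.2 and 15.6 FPKM and was not called (0.0755). TSEN15 (4.15 to 6.23 FPKM) and TSEN34 (31.8 to 39.97 FPKM), subunits of the transfer RNA splicing endonuclease, rose with limma adjusted p of 0.00014 and 0.000691. DICER1 (10.0 to 7.37 FPKM) and the RNase P gene RPP14 (1.01 to 0.531 FPKM) fell with limma adjusted p of 0.00303 and 0.00646. POP1 fell from 2.17 to 1.52 FPKM (limma adjusted p = 0.0385), a call that ended under 6 of 14 alternatives.

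Endosome genes, of the compartment where SAMD9 and SAMD9L are found, included 5 higher (35.7%) and 4 lower (28.6%) of 14 tested, near the 31.2% and 24.7% of all genes tested. EEA1, the endosome tether, fell from 8.71 to 6.11 FPKM and ZFYVE9 from 2.89 to 1.83 FPKM (limma adjusted p = 0.000336 and 0.011), and RAB5A rose from 11.6 to 15.7 FPKM (0.00121) and SNX2 from 8.73 to 11.2 FPKM (0.00319). RAB7A rose from 86.0 to 103 FPKM (limma adjusted p = 0.000238), a call that ended with length correction (0.0798).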
